A study of Drosophila melanogaster with 3 samples.

Results

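The Myc, Max, Mnt and cropped (crp) genes of Drosophila melanogaster, together with Mondo and bigmax, were examined for peaks of the zinc-finger protein CG10274. They are 6 of the 13968 protein-coding genes of the annotation, which held 18277 genes in all. The genes were chosen on peaks and peak scores of these same data, so that each count and level given for them is a description and carries no test. Transcription factor ChIP-seq, a method that recovers and sequences the chromatin a protein is attached to, was run with an antibody against GFP on 3 biological replicates of 1 group. The group was whole embryos of both sexes, 0 to 24 h old, from 1 transgenic line that carries CG10274 with GFP joined to its C-terminus, and chromatin was sonicated to 200 to 800 bp. All replicates share the line and the tag, no second group exists, and the control data set that the labels name was not analysed here. Whole embryos mix all cell types and all embryonic stages, and the peak lists give no marker by which the labelled tissue could be checked. Nothing in the labels says whether the replicates came from separate embryo collections, so the spread between them may be partly technical.

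The members encode transcription factors with a basic helix-loop-helix domain followed by a leucine zipper, a fold through which these proteins pair and bind E-box DNA. Myc, paired with Max, activates genes of growth and ribosome production, and Mnt, which also pairs with Max, represses transcription. Mondo and bigmax, the fly counterpart of mammalian Mlx, form a second pair that responds to sugar, and crp is the fly counterpart of mammalian AP-4.

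Sequence around the 5 highest-scoring summits near the members is shown first, because these carry most of the signal described below. A summit is the base at which a peak is highest, and each peak is named by the position of its summit from the 5′ end of the gene along transcription, in bp. All 5 are in release 6 of the genome on the plus strand. The regions are chr2L:16279890-16280090 for crp, chrX:3677865-3678065 and chrX:3678116-3678216 for the pair of summits in Mnt, chrX:3360525-3360625 for Myc and chr2L:21304256-21304356 for Mondo. Each summit is the middle base. Capitals mark matches to a weight matrix derived from the 300 highest-scoring peaks outside the member windows, described with the sequence results.
crp +7740: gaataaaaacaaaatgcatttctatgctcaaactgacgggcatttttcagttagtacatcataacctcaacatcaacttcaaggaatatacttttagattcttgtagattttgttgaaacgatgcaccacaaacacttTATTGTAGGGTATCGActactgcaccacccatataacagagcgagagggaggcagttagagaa
Mnt +6164: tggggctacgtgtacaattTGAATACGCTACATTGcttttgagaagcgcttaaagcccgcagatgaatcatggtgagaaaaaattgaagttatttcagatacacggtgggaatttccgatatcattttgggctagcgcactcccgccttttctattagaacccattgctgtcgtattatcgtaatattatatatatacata
Mnt +6365: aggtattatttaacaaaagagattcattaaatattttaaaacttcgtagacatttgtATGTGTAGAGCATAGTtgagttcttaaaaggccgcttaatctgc
Myc -12584: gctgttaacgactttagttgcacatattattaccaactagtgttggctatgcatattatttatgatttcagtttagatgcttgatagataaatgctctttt
Mondo +5744: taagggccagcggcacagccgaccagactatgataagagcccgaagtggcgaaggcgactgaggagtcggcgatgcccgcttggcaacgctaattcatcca

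Peaks were assigned to a member where the summit lay in the gene body or within 15 kb of it. The combined list, which holds the 2988 peaks that passed the authors' test of reproducibility between replicates, had 14 summits in 13 intervals at 5 of the 6 genes. Mnt and crp had 4 summits each, Myc had 3, bigmax had 2, Mondo had 1 and Max had none. The 3 strongest of the gene loci were crp, Mnt and Myc, with best ranks of 35, 53 and 65 by the authors' score. Of all protein-coding genes, 58.2% had a combined summit by the same rule. A count of 3 or more summits was reached by 3 members and by 15.2% of protein-coding genes. A summit inside the gene body was held by 4 members, against 9.07% of protein-coding genes, and one of the 300 highest-scoring summits lay in the window of 4 members, against 11.4%. A longer gene body spans more of the genome, so genes of like length were counted as well. Among the 1106 protein-coding genes as long as Myc or longer, 66.1% had a summit in the window, 40.3% in the body and 12.5% one of the 300 highest-scoring in the window. Myc, Mnt, Mondo and crp are the members of that length, and each of these 4 had all 3. Among the 6372 genes no longer than Max, 51.6% had a summit in the window, and of the short members bigmax did and Max did not. The members were selected with these peaks known, and nothing is read from the shares. When only combined peaks overlapped by top entries of both remaining replicates were kept, 8 summits were left without replicate 1, 8 without replicate 2 and 13 without replicate 3. The same 5 genes kept at least 1 in each case, and the share of protein-coding genes fell to 37.3% without replicate 2.

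**Figure D1:**
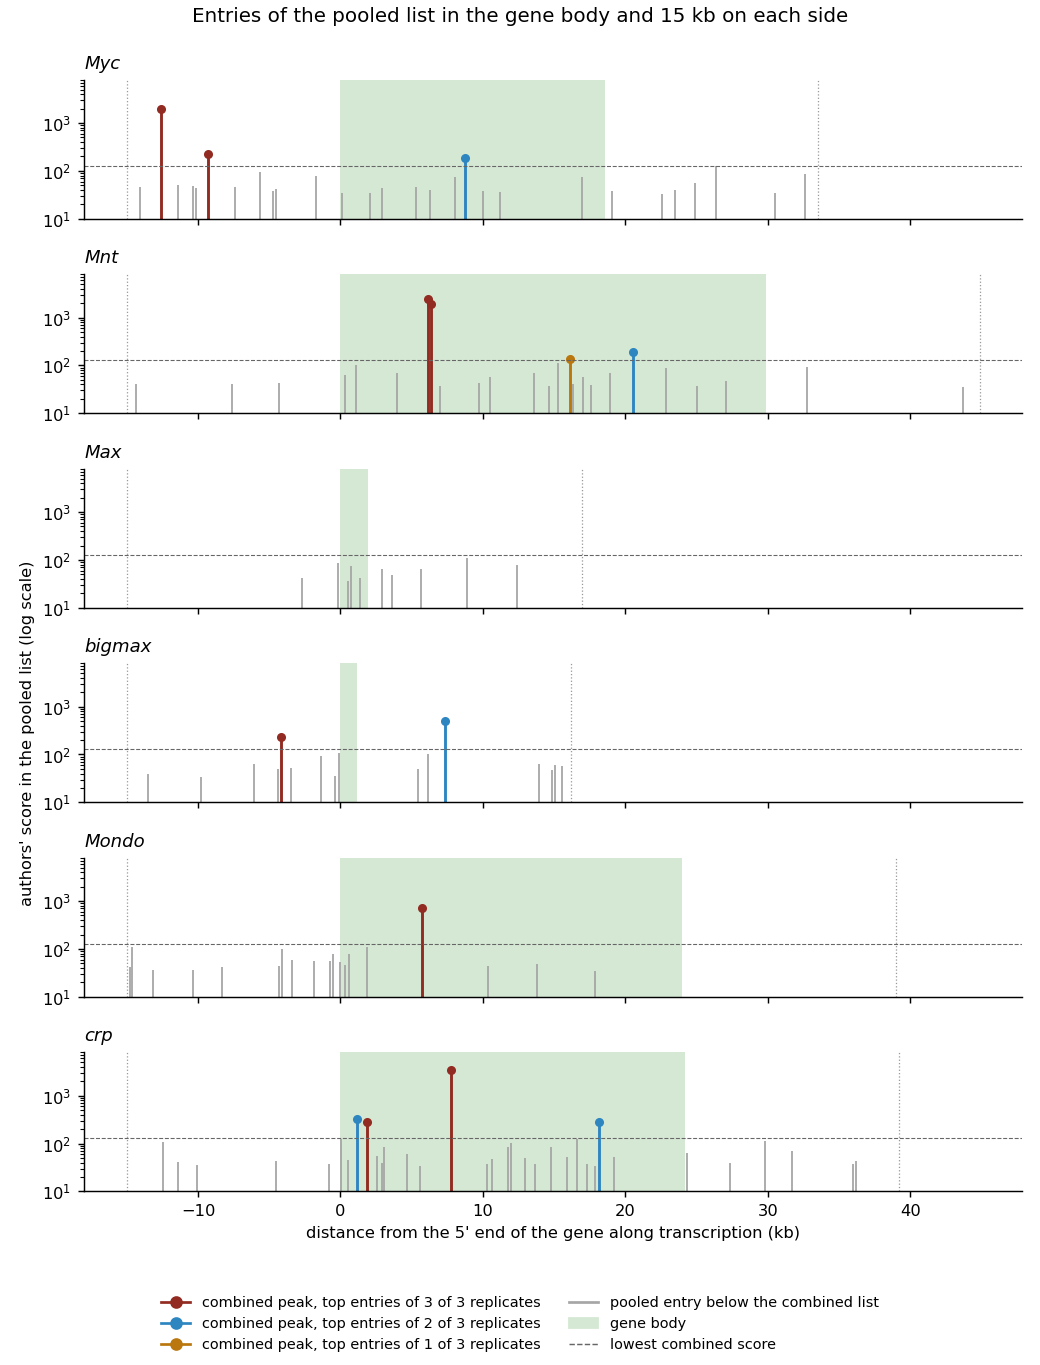
Each panel plots the authors' score in the pooled list (log scale) against the distance of the summit from the 5′ end of 1 gene along transcription (kb), for entries in the gene body (green) and 15 kb on each side (dotted lines). Coloured stems are the 14 combined summits, by how many of the 3 replicates have an overlapping top entry, and grey stems are pooled entries that scored below the combined list; the stem in crp at +7740 is the tallest and Max has grey stems only.

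Peak scores were compared between replicates as relative scores. A relative score is the authors' score of the best overlapping entry in a replicate divided by a median of that replicate. The median was taken over the 2292 combined peaks that all 3 replicate lists contain. A value of 1 is thus the median of those peaks, called an ordinary combined peak here. These medians were 113, 74.9 and 56.3 in replicates 1, 2 and 3. Support means an overlap of at least 1 bp with 1 of the 2988 highest-scoring entries of a replicate. It is partly given by construction, since the combined list comes from the same replicates. Of the 14 member summits, 8 were supported by all 3 replicates, against 50.3% of all combined summits. All 14 had some entry in replicates 1 and 2, as had 98.1% and 98.9% of all combined summits, and 10 had one in replicate 3, where 78.7% of combined summits had one.

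Myc, the growth activator (FBgn0262656, chromosome X, 3373159 to 3391697, plus strand), had its strongest peak outside the gene. The peak at X:3360286-3360901 was 616 bp wide, against a median of 404 bp over the combined list, and its summit lay 12584 bp upstream of the gene in intergenic sequence. The nearest start site, 3111 bp away, was that of the long non-coding RNA gene lncRNA:CR46243. Its score of 1969 placed it 65 of 2988, and 5 of the 828 combined peaks with no start site within 2 kb. It scored 1221 in replicate 1, 389 in replicate 2 and 423 in replicate 3, at ranks of 64, 89 and 67. Relative scores were 10.8, 5.19 and 7.52, a mean of 7.85 ± 2.84 (SD, n = 3). All 3 replicates thus placed it among their 89 highest entries, with replicate 1 highest on the relative scale. Each replicate list held 2 summits in this interval where the combined list held 1. Along the direction of transcription of Myc, the stronger of them lay -29, -31 and -73 bp from the combined summit, and the other lay 174, 169 and 130 bp from it.

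The other Myc peaks were ordinary in height. The summit at -9298 lay in an intron of lncRNA:CR46243, 175 bp past its start site, in an interval of 169 bp at X:3363788-3363956. Its rank was 1329 and its relative scores were 0.674, 1.27 and 0.968, a mean of 0.970 ± 0.297 (SD, n = 3). The third, at +8737, lay in intron 2 of the 2 introns of Myc, at X:3381694-3382097, where lncRNA:CR44999 also runs. Its rank was 1759, and its relative scores were 0.843, 1.04 and 0.437, with the lowest in replicate 3, whose entry stood at rank 6190. The summit at +8737 was the only one of the 3 with Myc as the gene of the nearest start site. Just under the combined list, the pooled list held an entry 26350 bp past the Myc start site, downstream of the gene, with a score of 124 and a rank of 3130.

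Max, the partner of both Myc and Mnt (FBgn0017578, arm 3L, 19262232 to 19264184, minus strand), had no combined summit. Its window held 10 entries of the pooled list, the fewest of the members, and the best of them ranked 3642 with a score of 111. That entry stood 23 bp upstream of the start site of rept, which encodes the helicase Reptin, and it ranked 2636 in replicate 1 and 3588 in replicate 2 with no entry in replicate 3. The entry nearest to the start of Max itself had a score of 86.8 and a pooled rank of 5329, lay 25 bp upstream of the start site of CG42374, and ranked 14375 and 7107 in replicates 1 and 2. Taken separately, the best entry of each replicate list in the window ranked 2550, 3588 and 10930. These are not 1 shared entry, as rank 2550 lay at a pooled entry of rank 8646 that replicates 2 and 3 lacked. Replicate 1 had 2 of its 2988 top entries in the window, and replicates 2 and 3 had none. Entries outside the combined list come from lists that, per the authors' descriptions, mix peaks with background, and they were not read as binding. The nearest combined summit lay 59888 bp downstream of Max.

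Mnt, the repressor of the network (FBgn0023215, chromosome X, 3671801 to 3701672, plus strand), held its strongest signal inside the gene. The interval X:3677654-3678379, 726 bp wide, had 2 combined summits in an intron, at +6164 and +6365, with scores of 2391 and 1953 and ranks of 53 and 67. Among peaks with no start site within 2 kb they ranked 3 and 6. The best overlapping entry scored 1712, 365 and 366 in replicates 1, 2 and 3, at ranks of 41, 100 and 80. Relative scores were 15.2, 4.87 and 6.51, a mean of 8.87 ± 5.56 (SD, n = 3). Replicate 1 stood far above the other two, and without it the mean was 5.69. The paired shape came back in each replicate, whose first summit lay 17, 0 and 15 bp from the first combined summit and whose second lay 252, 202 and 214 bp from it.

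The other Mnt summits were weak. The summit at +20538, at X:3692137-3692540, lay in intron 1 of the 7 of the canonical transcript, 2976 bp past an internal Mnt start site. It ranked 1745, with relative scores of 0.833 and 0.824 in replicates 1 and 2 and no entry in replicate 3. The summit at +16100, at X:3687699-3688102, lay 334 bp upstream of another Mnt start site and ranked 2670 with a score of 139. Its relative scores were 0.882 and 0.469 in replicates 1 and 2, replicate 3 had no entry, and it had top support in replicate 1 only. It was the member summit nearest to the end of the combined list, whose lowest score was 128.

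Mondo, the sugar-responsive factor (FBgn0032940, arm 2L, 21286078 to 21310050, minus strand), had 1 combined summit. It lay at 2L:21304140-21304453 in intron 2 of 10, 197 bp upstream of an internal Mondo start site, and ranked 234 with a score of 718. The 3 replicates gave scores of 552, 114 and 72.0, at ranks of 142, 660 and 766. Relative scores were 4.90, 1.52 and 1.28, a mean of 2.57 ± 2.03 (SD, n = 3). Replicates 2 and 3 placed the peak slightly above an ordinary combined peak, replicate 1 well above one, and without replicate 1 the mean was 1.40.

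Both summits in the window of bigmax, the partner of Mondo (FBgn0039509, arm 3R, 27287366 to 27288526, minus strand), stood at other genes. The stronger, at +7323 and 3R:27281112-27281338, lay in an intron of mrt, 173 bp upstream of an mrt start site and 6163 bp from the bigmax body. It ranked 409 with a score of 497, and had relative scores of 1.87 and 2.54 in replicates 1 and 2 and no entry in replicate 3. The other, at -4162 and 3R:27292486-27292889, lay 479 bp upstream of the CG3348 start site. It ranked 1319, and its relative scores were 1.05, 0.776 and 1.03, a mean of 0.952 ± 0.153 (SD, n = 3), the smallest SD among the member peaks with an entry in all 3 replicates. The bigmax promoter had a pooled entry of rank 3790, below the combined list, which lay 111 bp upstream of the start site of Hmu.

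The gene with the strongest peak was crp, the AP-4 counterpart (FBgn0001994, arm 2L, 16263556 to 16287730, minus strand). Its main summit, at +7740 in intron 1 of 2, lay in an interval of 739 bp at 2L:16279524-16280262. The score of 3481 gave it rank 35 of all combined peaks and rank 2 of the 828 with no start site within 2 kb. It scored 2129, 697 and 756 in replicates 1, 2 and 3, at ranks of 36, 37 and 33. Relative scores were 18.9, 9.31 and 13.4, a mean of 13.9 ± 4.82 (SD, n = 3). The ranks were nearly the same in every replicate although the relative scores differed, and the replicate summits lay 5, -8 and -11 bp from the combined summit.

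The other 3 crp summits also lay in its introns. The summit at +1152 (2L:16286376-16286779) ranked 763 and had relative scores of 1.55, 1.02 and 0.320, with replicate 3 at rank 17721. The summit at +1874 (2L:16285804-16285981) ranked 1014 and had relative scores of 0.875, 0.913 and 1.19, with support in all 3 replicates. The summit at +18135 (2L:16269534-16269657), in intron 2, ranked 969, had relative scores of 1.81 and 0.560 in replicates 1 and 2 and no entry in replicate 3, and was nearest to the start site of CG4935, 7454 bp away. At the crp start site itself, 29 bp inside the gene, the pooled list had an entry with a score of 125 and a rank of 3121, the member entry just outside the combined list.

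**Figure D2:**
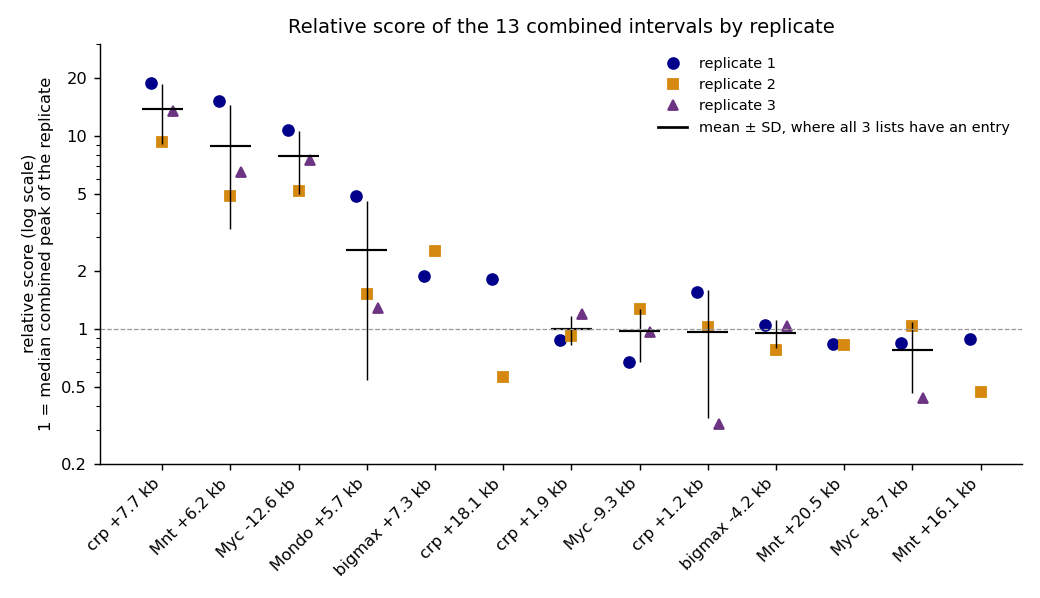
The plot gives the relative score of each of the 13 member intervals (log scale) as 1 point per replicate. A value of 1 is the median of a replicate over the combined peaks that all 3 replicate lists contain. Lines give the mean and SD where all 3 replicate lists have an entry. Intervals are ordered by the mean over the replicates that have an entry. The crp +7740, Mnt and Myc -12584 intervals sit at 4.87 or more in every replicate, the Mondo interval spans 1.28 to 4.90, and all others lie between 0.320 and 2.54.

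In the order of mean relative scores, crp +7740 came before the Mnt interval, Myc -12584, Mondo +5744 and the weaker peaks. The crp and Mnt means were 5.03 apart, less than their summed SDs of 10.4, though crp was higher in 3 of 3 replicates. Mnt and Myc -12584 were 1.02 apart, against summed SDs of 8.40, and Mnt was higher in 1 of 3 replicates, so their order is not set by these data. Myc -12584 stood above Mondo by 5.28, more than the summed SDs of 4.87, with no overlap between replicates. Mondo stood above crp +1874 by 1.58, within the summed SDs of 2.20, with no overlap of values. Among crp +1874, Myc -9298, crp +1152, bigmax -4162 and Myc +8737, neighbours in the order differed by 0.180 or less and their values overlapped.

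By position, 12 of the 14 member summits lay in introns, against 52.8% of all combined summits, and 2 were intergenic, against 33.6%. None lay in an exon, against 1.17% of all combined summits in coding exons and 12.4% in exons outside coding sequence. Start sites were within 500 bp of 5 of the 14, against 47.3% of combined summits, and 7 had none within 2 kb, against 27.7%. The 4 highest-scoring member summits, at crp, Mnt and Myc, all belonged to those 7, while the Mondo summit and both bigmax summits stood within 500 bp of a start site. The nearest start site belonged to the member for 9 of the 14.

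Below the combined list, the member windows held 118 further entries of the pooled list. Of these, 14, or 11.9%, overlapped entries in all 3 replicates, against 13.4% of such entries in the whole pooled list. This overlap can be shared with a combined peak. The entry at 3R:27292690-27293093 had the same replicate ranks, 1248, 1828 and 1013, as bigmax -4162 beside it. Counting all pooled entries, density ran from 0.313 per kb at Max to 0.628 per kb at crp, against 0.218 per kb over the genome. In replicate 3 the windows of the 6 genes ranged from 0.125 to 0.227 per kb around the same genome value, and Myc alone was above it. As these lists mix peaks and background, the densities describe the lists and not binding.

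Myc, Max, Mnt, Mondo and bigmax proteins bind E-boxes, and 8 motifs, these among them, were searched on both strands within 50 bp of the summits. CACGTG, the E-box of Myc and Max, was at 0 of the 14 summits, at 1.07% of all combined summits and at 1.37% of flanking windows 500 bp away. CAGCTG was at 1, crp +1152, against 3.68% and 4.97%. Any E-box, CANNTG, which includes both of these, was at 6, against 37.7% and 41.7%. CGATA, the core bound by BEAF, was at Myc +8737 and Mnt +6164, against 13.3% and 11.8%, and TATCGATA, the DRE that holds it, was at none, against 1.24% and 0.351%. GAGAG, the GAGA factor element, was at crp +1874, against 9.64% and 15.2%. CAGGTAG of Zelda was at none of the 14, against 0.636% of combined summits and 0.669% of flanks. GGTCACACT of M1BP was also at none, against 0.402% and 0.218%. These letters being absent from a window says nothing about the factors. The member windows were 66.3% A or T at the median, against 65.3% over all combined summits and 56.4% in flanks, and they ranged from 40.6% at Mondo to 79.2% at bigmax -4162. Each of the 14 windows occurs once in the genome.

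A weight matrix of 16 positions was built from summits outside the member windows on the 8 letters most enriched over flanks. Built from all such peaks, its core was ATTTAAAA, made of A and T only, and 12.8% of the combined summits outside the member windows, to which all shares of matches refer, passed a threshold that 5.01% of flanks passed. Of the members only bigmax -4162 did. The same summits and flanks built the matrix, so an excess of passing summits over flanks is partly given by construction. Built from the 300 highest-scoring peaks, its core was GTAGGGTA, found at 5.42% of these summits and 0.169% of flanks. Within 50 bp, 11.9% of combined summits passed, 37.5% of the 100 highest-scoring and 25.4% of the 300 highest-scoring, and Mnt +6365 was the only member. The peaks that trained the matrix are among all of these combined summits. No share of combined summits that passed is therefore independent of it, here or in the wider search that follows. With 100 bp searched on each side, a window chosen after the data were seen, 13.8% of combined summits, 45.8% of the 100 highest-scoring and 31.9% of the 300 highest-scoring passed, and 3 of the 14 member summits did. The best member match was at crp +7740, TATTGTAGGGTATCGA at chr2L:16280028-16280043, 38 bp to the right of the summit on the plus strand, with a score of 15.67, above 98.5% of combined windows. The printed Mnt windows held a match of 10.53 on the minus strand at chrX:3677884-3677899 and one of 8.75 at chrX:3678173-3678188, above 92.6% and 88.5% of combined windows. Myc -12584, whose peak was about as high as that of Mnt, had a best match of 4.89, under the threshold of 8.07. A match describes the letters and is not a site. With a threshold that 1.01% of flanks pass, applied within 50 bp only, no member summit had one. That search could not hold the matches printed for crp +7740 and Mnt +6164, which reach farther than 50 bp from the summit. The stricter threshold was not applied within 100 bp.

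**Figure D3:**
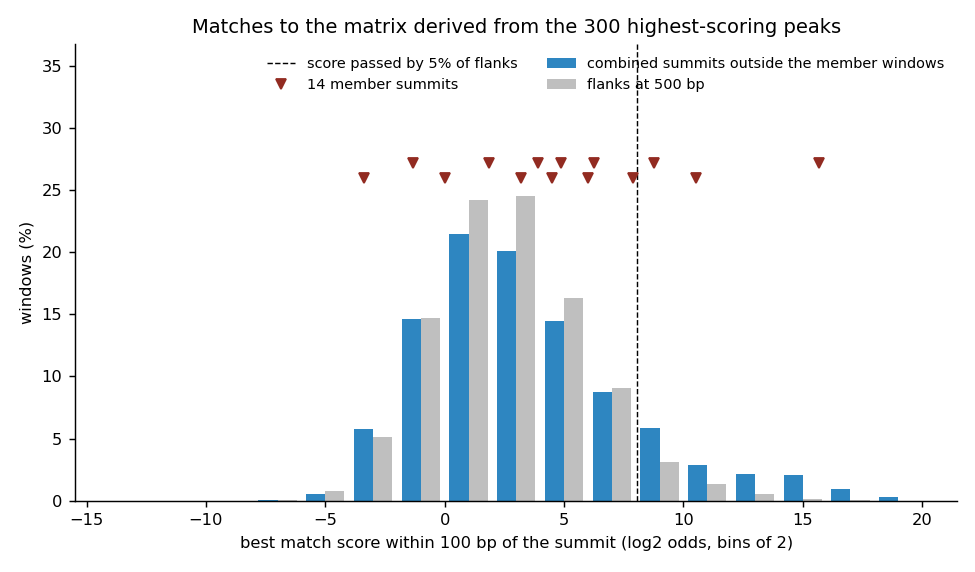
Bars show the share of windows (%) by the best match score within 100 bp of the summit (log2 odds, bins of 2) for combined summits outside the member windows (blue) and for flanks at 500 bp (grey), and triangles mark the 14 member summits at arbitrary height. Of the triangles, 3 lie right of the dashed line at 8.07, with crp +7740 farthest right at 15.67.

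Peaks most like the strongest fully replicated peak of each member were sought. Likeness was the distance between log2 relative scores over the 3 replicates, and no other trait entered. A relative score takes the best overlapping entry of a replicate, so peaks alike in it can differ in combined rank. Nearest to Myc -12584 were peaks at ftz-f1, Ak3 and spdi, at distances of 0.18, 0.22 and 0.25. They ranked 62, 59 and 271 in the combined list, against 65 for Myc -12584. Nearest to the Mnt interval were peaks at Got2, psq and p, at 0.06, 0.29 and 0.32. They ranked 226, 72 and 240, against 53 and 67 for the Mnt summits. Nearest to crp +7740 were peaks at Mtap, Leash and CG2811, at 0.27, 0.29 and 0.38, with ranks of 73, 37 and 41, against 35. Nearest to Mondo +5744 were peaks at kermit, Tina-1 and Xrp1, at 0.26, 0.39 and 0.39. Their ranks were 232, 309 and 1106, against 234. Nearest to bigmax -4162 were 1 peak at Cht7 (0.02) and 2 summits at S6KL (both 0.09), with ranks of 1162, 1353 and 1776, against 1319. Genes are those of the nearest start site, and 3 replicates give few points for a likeness.

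The wider network was described from 4 lists of 37 genes in all. Of these, 26 had a combined summit in the body or within 15 kb, 7 had one in the body, 11 were the gene of the nearest start site for one, and 4 had one of the 300 highest-scoring in the window. Over all protein-coding genes these shares were 58.2% for the window, 9.07% for the body, 13.3% for the nearest start site and 11.4% for the 300 highest-scoring. The 8 sugar-response genes of Mondo and bigmax all had a summit in the window, and 3 had one of the 300 highest-scoring, beside the 58.2% and 11.4% of all protein-coding genes. Of these 3, only cbt, a transcription factor induced by sugar, was itself the gene nearest to that summit, which lay 1369 bp upstream of its start site at rank 57 with a mean relative score of 9.66 ± 0.599 (SD, n = 3). The Aldh-III summit (rank 49) lay 13281 bp from the gene near the wech start site, and that of Pgd, an enzyme of the pentose phosphate pathway (rank 80), lay 475 bp upstream of a ph-p start site. Of 14 regulators and cofactors of Myc, 10 had a summit in the window and 3 in the body. The best were at hfp, a repressor of Myc transcription (rank 134, though 9 bp from the cue start site), at sgg, the GSK3 kinase (rank 352, 219 bp upstream of an sgg start site), and at puf, which stabilises Myc (rank 375, near atl). Of 12 growth genes known as Myc targets, 7 had a summit in the window and 1 in the body, with the best at Ns1 (rank 686, nearest to kuk), mbm (rank 1086, nearest to CG17075) and Polr1B (rank 1094, nearest to AP-2alpha). Of the 3 other genes of the fold, SREBP, a regulator of lipid synthesis, had a summit 484 bp past its start site at rank 815 and a mean relative score of 1.35 ± 0.606 (SD, n = 3), and Mitf and Usf had none.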

How the data were processed

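Peaks in the narrowPeak format were analysed in the dm6 build: 1 list of 30000 entries per replicate, 1 pooled list of 30000 and the combined list of 2988 that passed IDR, per the labels and the authors' notes on each list. The peak score (column 7), as deposited by the authors, has no fixed range and was not scaled between lists. The −log10 q-value of each peak (column 9), as deposited by the authors, sits at a ceiling for 75.8% of combined peaks, so peaks were ranked by score. How reads were aligned and peaks called, and at which thresholds, is not given in the sources used here. Scores give no read counts, so the depth per replicate is unknown and no interval is given. The 5 lists in the dm3 build were not used.

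Genes and start sites came from the BDGP 6.54 annotation of Ensembl release 115 without transposable elements, and sequence from the release 6 genome in RefSeq. Coordinates are 1-based. Lists were processed in Python 3.11.15 (pandas 2.3.3, numpy 2.4.6, matplotlib 3.10.9). The matrix search was tested on simulated windows with a planted sequence, and the overlap rule on a small made-up set of intervals. The counting of summits per gene was not tested in this way. With 1 group, and members chosen on their peaks, no test was run and no p-value is given. The members, gene lists and motifs were chosen with earlier results of these data known. Named are the members, every combined peak in their windows, the 3 peaks most alike to the strongest peak of each member that is in all 3 replicate lists, and the 3 highest-scoring genes of each list. Entries outside the combined list and the genes named beside them were picked after their values were seen. Of the 37 list symbols all matched, lid as Kdm5 and CTPsyn as Ctps. Alternatives varied the window, threshold, overlap, replicates, scaling, promoter distance and matrix.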

Additional observations from a re-analysis of the deposited data

How the results depend on the processing

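Members with a combined summit numbered 5 in the main count, 4 or 5 under the other windows, thresholds and left-out replicates, and 3 where a reciprocal overlap of 50% with a top peak of all 3 replicates was required. That overlap left 3 of the 14 summits, and also 3 of the 8 supported by all replicates, and 26.1% of protein-coding genes in place of 58.2%. The share of genes was 34.3% within 5 kb, 9.07% in the body, 11.4% for the 300 highest-scoring peaks, 13.3% where the nearest start site had to be the gene's own, and 37.3% to 46.5% with a replicate left out. Summits numbered 24 within 50 kb, 5 among the 300 highest-scoring, 9 by nearest start site and 8 to 13 with a replicate left out. Summits near a start site fell from 5 to 3 at 250 bp. Matches to the matrix moved from 1 to 3 within 25 bp, 0 within 100 bp and 0 at the threshold of 1% of flanks. Further settings of the matrix of the 300 highest-scoring peaks were chosen after seeing the data. The search within 100 bp gave 3. The threshold of 1%, applied within 50 bp only, gave 0, where the threshold that 5.01% of flanks pass gave 1 within 50 bp. Without replicate 1 the mean relative score went from 8.87 to 5.69 for the Mnt interval and from 2.57 to 1.40 for Mondo +5744. The reciprocal overlap dropped the strongest intervals of Myc and Mnt, which replicate 3 covers with 2 shorter entries each, as replicate 2 also does for Mnt. For the other values that moved the cause was not tested. With 3 replicates of 1 line and no read counts, small differences in score cannot be resolved.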
